A study of Rattus norvegicus with 24 samples.

Results

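Cytosolic ribosomal protein genes were described in 2 skeletal muscles of the rat. Probe sets (groups of short probes that report 1 transcript as 1 value) were taken as members where the platform annotation gave them a single gene symbol starting with Rpl or Rps, without the Rps6k kinases, and the probe set with the highest mean over 24 arrays stood for the gene. The rule found 44 genes, 30 of the large subunit and 14 of the small subunit, among 4736 genes with 1 symbol on the array. One tissue was extraocular muscle (EOM), which turns the eye in the orbit; the other was extensor digitorum longus (EDL), a limb muscle that extends the toes. Each was sampled at 6, 18 and 30 months with 4 arrays per group, and each array held RNA pooled from 4 animals. The labels give no strain, sex or treatment for any group. Signals are linear intensities in arbitrary units, already scaled between arrays by the authors.

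Ribosomal proteins form the small subunit, which reads the messenger RNA, and the large subunit, which joins the amino acids. Their genes are among the most strongly expressed in most cells, and their messenger RNAs usually begin with a run of pyrimidines at the cap through which growth signals adjust their translation. Skeletal and cardiac muscle also express Rpl3l, a close paralog that can replace Rpl3 near the catalytic centre of the large subunit.

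The first transcribed bases are shown for the genes on which the results turn, and for Rplp0 and Rps23 as further members with a pyrimidine run at the start. Each line holds 10 bases before and 20 bases from the annotated start on, 5′ to 3′, from the RefSeq promoter table (GRCr8). Capitals mark an unbroken run of C or T of at least 5 bases that covers the first annotated transcribed base.
Rpl3 (chr7:113507971-113508000, minus strand): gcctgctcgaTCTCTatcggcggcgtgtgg
Rpl3l (chr10:14258436-14258465, plus strand): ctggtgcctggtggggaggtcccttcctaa
Rpl4 (chr8:73566467-73566496, plus strand): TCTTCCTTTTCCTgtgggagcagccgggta
Rpl22 (chr5:168117951-168117980, plus strand): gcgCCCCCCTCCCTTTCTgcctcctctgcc
Rpl24 (chr11:58128386-58128415, minus strand): tagggaggagattctctaccctataaggtg
Rps27l (chr8:76443648-76443677, plus strand): ttcatttgtcattatttgtggtgtccagag
Rplp0 (chr12:46718371-46718400, minus strand): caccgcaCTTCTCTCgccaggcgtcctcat
Rps23 (chr2:23814507-23814536, plus strand): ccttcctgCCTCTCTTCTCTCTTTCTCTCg

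Of 37 members with an entry in that table, 17 (45.9%) carried such a run, against 4003 of 33469 entries (12%) for all genes. Among the members later called lower in EOM, 4 of 12 with an entry carried it, and among the others 13 of 25. A window without the run says only that these letters are not at the annotated start, which can lie away from the start used in muscle.

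A member was tested if its signal passed its array's 40th percentile on at least 3 of the 4 arrays of 1 group, and 43 of the 44 were. The member left out was Rplp1l3, at 16.7 ± 11.9 units in EDL and 22.2 ± 13.5 in EOM (mean ± SD, n = 12 arrays each). The RefSeq table lists other names for that symbol, so its place among ribosomal proteins is doubtful. Among the tested members, 4 have names of copies or pseudogenes (Rpl19l4, Rpl36al1, Rps2-ps1 and Rps4x-ps9). The brightest members by signal were Rps29 (mean 23954 units over 24 arrays), Rps16 (13650) and Rpl23 (13460), and the dimmest tested were Rps2-ps1 (52.8), Rpl5 (75.8) and Rpl30 (129.2). A probe set's signal also depends on its probes, so signals of different genes are not an order of abundance. A further 38 probe sets matched several ribosomal symbols and were not named.

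The arrays, as scaled by the authors, had trimmed means of 494 to 498 units and medians of 89.7 to 136.8. They were less alike at the bright end, where many members lie. The brightest value of an array was 30415 to 63872 units in EDL and 20943 to 46956 in EOM. It was lowest on replicate 3 in each group. Beta-actin probe sets at the 3' and 5' ends gave a ratio (a sign of RNA quality) of 1.14 to 3.54 in EDL, with the 2 highest values in replicates 1 and 2 at 6 months, and 1.13 to 1.62 in EOM. EDL replicate 1 at 30 months stood apart, with a Spearman correlation of 0.873 to its group. Marker lists of other cell types differed between the muscles. Skeletal fibre markers were lower in EOM for 7 of 8 tested, with summed signals of 126356 to 209198 units in EOM and 148501 to 285988 in EDL. Higher in EOM were 3 of 4 Schwann cell, 4 of 6 fibroblast, 3 of 3 erythrocyte and 4 of 6 orbital gland markers tested. So were 2 of 4 lymphocyte, 2 of 3 macrophage and 1 of 4 endothelial markers, and no marker on these lists was lower. Mbp and S100b (Schwann cell) and Spt1 and Krt19 (orbital gland) passed the filter through EOM groups alone. Cd79b (lymphocyte), Vwf (endothelial) and Krt18 (orbital gland) passed it through EDL groups alone. Spt1 and Krt19 each lay below the floor for low signals, described below, on 9 EDL arrays, and Mbp on 4. The direction of a marker that passed through 1 muscle alone was favoured by the filter. The summed Schwann markers were 4500 to 6856 units in EOM and 1196 to 2209 in EDL, and the erythrocyte markers 10494 to 33934 and 3087 to 6089. In bulk muscle, fewer cells of a type and less RNA per cell cannot be told apart, and the part of these differences in the results below was not tested.

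The comparison of EOM with EDL asked how the 2 muscles differ. Averaged over ages, 15 of the 43 members were lower in EOM, 1 was higher and 27 were not called (limma, Benjamini-Hochberg adjusted p under 0.05). Among all 5741 tested probe sets 42.3% were called, 22.3% higher and 20% lower. The members' share called, 37.2%, lay near that background. With the deposited scaling their share called lower, 34.9%, lay above the background for lower calls. After median centring or cyclic loess, described below, it did not. The log2 difference was below 0 for 40 of 43 members and for 55% of all tested probe sets. The number of members below 0 was 41 after median centring, 33 after quantile normalisation and 31 after cyclic loess. The median difference was -0.23 for the members and -0.065 for all tested probe sets. Rps2-ps1 and Rpl5 (-0.48, not called, adjusted p = 0.096) passed the filter on low signals through EDL groups alone; of the 41 members that passed it in both muscles, 14 were lower and 1 higher. Without the 4 copy and pseudogene names, 13 were lower and 1 higher, with a median of -0.22.

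**Figure D1:**
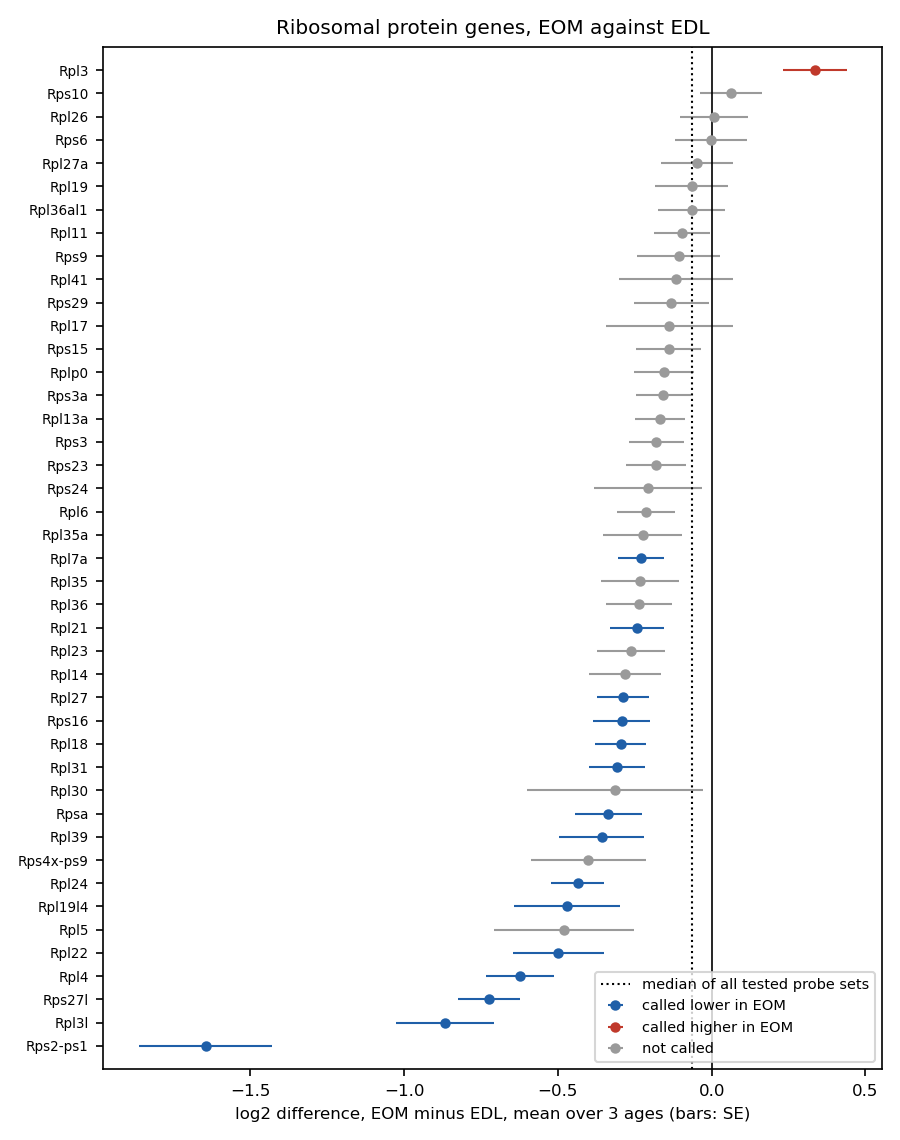
Log2 difference between EOM and EDL (mean over 3 ages) for the 43 tested ribosomal protein genes, with bars for the standard error. Blue points are the 15 genes called lower in EOM, the red point is Rpl3, called higher, grey points were not called, and the dotted line marks the median of all tested probe sets at -0.065.

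Rpl3l, the striated muscle paralog of Rpl3, was lower in EOM at every age. At 6 months it read 8062.0, 4786.8, 5313.2 and 12396.9 units in EDL and 4547.3, 2972.4, 3103.9 and 4855.7 in EOM. At 18 months the EDL arrays read 5655.6, 8694.5, 6210.4 and 10763.8 and the EOM arrays 4868.6, 4268.2, 3034.9 and 5736.5. At 30 months they read 7337.5, 6430.4, 6036.4 and 8616.0 against 4867.3, 2836.7, 3266.5 and 4565.9. The muscles overlapped narrowly at 6 and 18 months, through EDL replicate 2 and EDL replicate 1, and were separate at 30 months, as 10.5% of all probe sets were in the lower direction. The log2 difference over ages was -0.87 (SE 0.16, adjusted p = 8.85e-05, limma) and -0.80 for its other probe set (adjusted p = 1.85e-06).

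Rpl3, the paralog used in most tissues, was the only member called higher in EOM over ages, at 0.34 (SE 0.10, adjusted p = 0.011, limma) and 0.91 for its dimmer probe set (SE 0.12, adjusted p = 1.29e-06). Its brighter probe set read 2632.1, 2336.1, 3394.1 and 2868.1 units in EDL at 6 months and 1919.8, 2041.7, 2704.0 and 2422.6 at 18. At 30 months the EDL arrays read 4299.3, 3579.6, 4122.9 and 3937.4. All 4 of these lay above every EDL array at the younger ages. In EOM the arrays read 4192.8, 3223.2, 2926.4 and 4241.8 at 6 months, 4042.6, 5046.2, 3136.2 and 4575.6 at 18, and 3820.3, 2706.2, 2938.1 and 4190.1 at 30. The muscles were separate at 18 months, as 15.4% of all probe sets were in the higher direction, and overlapped at 6 and 30. The dimmer probe set is of a class whose probes are shared between transcripts.

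**Figure D2:**
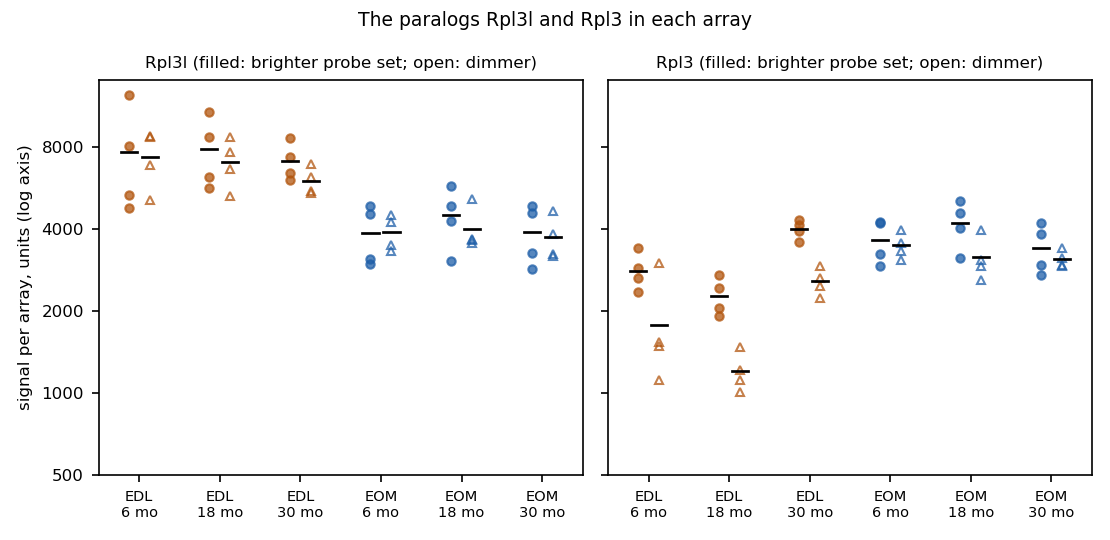
Signal of Rpl3l (left) and Rpl3 (right) on each array, by muscle and age, on a log axis; filled circles are the brighter probe set, open triangles the dimmer, and black lines the group means. Rpl3l lay lower in EOM at each age, and Rpl3 in EDL was highest at 30 months.

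The ratio of Rpl3 to Rpl3l within an array is unchanged by a scaling that multiplies the whole array by 1 factor. Quantile normalisation and cyclic loess can change it, and it was not computed under them. It was computed from the deposited values, after the values of both genes were seen. Its p-values are therefore no support apart from the calls of the 2 genes on these arrays. Their adjustment does not cover the choice of the pair. The absolute size of the ratio depends on the probes, so only differences between groups are given. The log2 ratio was -2.15 to -0.55 over the EDL arrays and -0.35 to 0.24 over the EOM arrays, which did not overlap. It was 1.20 higher in EOM over ages (2.30-fold; two-sided exact permutation test within ages, p = 5.83e-06, the smallest it can give; adjusted p = 5.83e-05 over 10 comparisons). At 6, 18 and 30 months it was 1.28, 1.67 and 0.65 higher (exact permutation p = 0.0286 each, the smallest that 4 against 4 arrays allow; adjusted p = 0.0571). With the other probe sets the difference over ages was 1.14 to 1.77, and the muscles overlapped in each of those pairings. With the brighter Rpl3 and dimmer Rpl3l probe sets, EDL arrays reached -0.48 and EOM arrays went down to -0.67. After adjustment no difference at a single age passed in any of the 4 pairings of probe sets. In 1 of them the difference at 30 months was 0.46 (exact permutation p = 0.114, adjusted p = 0.190).

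Among the other members called lower, Rps27l, a stress-inducible paralog of Rps27, differed by -0.72 (SE 0.10, adjusted p = 2.48e-06, limma). Its signal averaged 3390 ± 650 units in EDL and 2039 ± 317 in EOM (n = 12 each). At 30 months it read 4280.7, 4117.2, 4034.7 and 3310.4 in EDL and 1852.1, 2016.8, 2140.3 and 1654.7 in EOM, with no overlap. Its near-identical paralog Rps27 was not measured by a probe set of its own here, so the signals of both transcripts cannot be told apart. The name Rps27l is that of the platform annotation, and the probe set may report Rps27 in part or in whole.

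Rpl4, a large subunit protein that lines the exit tunnel, differed by -0.62 (SE 0.11, adjusted p = 7.05e-05, limma). It averaged 5743 ± 1094 units in EDL and 3701 ± 521 in EOM. At 6 months the EDL arrays read 6215.5, 5644.8, 6354.9 and 4685.9 and the EOM arrays 3532.5, 2677.3, 4439.5 and 3777.9, with no overlap (7.33% of all probe sets). At 18 months 1 EDL array, at 3901.3, lay within the EOM range. Rpl24, which forms a bridge between the subunits, differed by -0.44 (SE 0.09, adjusted p = 0.000263, limma) and by -0.40 in its other probe set. It averaged 14665 ± 1952 units in EDL and 10832 ± 1351 in EOM.

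Rpl22, an RNA-binding protein of the large subunit, differed by -0.50 (SE 0.15, adjusted p = 0.00869, limma). Its EOM arrays varied from 3002.5 to 10274.1 units and overlapped with the EDL range of 7803.8 to 12424.8. The remaining members called lower were Rpl19l4 (-0.47), Rpl39 (-0.36), Rpsa (-0.34), Rpl31 (-0.31), Rpl18 (-0.30), Rps16 (-0.29), Rpl27 (-0.29), Rpl21 (-0.24) and Rpl7a (-0.23). The calls of Rpl19l4, Rpl21 and Rpl39 were lost in 7, 8 and 13 of the 24 fits that left out 1 array (highest adjusted p = 0.0605, 0.0589 and 0.0795, limma). Rpsa, which also serves as a laminin receptor at the cell surface, was called in its brighter probe set and not in its other (-0.22, adjusted p = 0.0876). Rplp0, the base of the stalk that recruits elongation factors and the only stalk protein among the members, was not called (-0.15, adjusted p = 0.207).

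Rps2-ps1, annotated as a pseudogene of the small subunit protein Rps2, was called lower on signals near the low end of the arrays. Its tested probe set in EDL was 67.4, 138.3, 18.0 and 51.5 units at 6 months, 194.1, 113.2, 69.7 and 148.7 at 18, and 129.0, 74.7, 59.9 and 83.9 at 30. In EOM it was 8.0, 8.5, 7.0 and 7.3, then 7.0, 11.3, 9.1 and 8.7, then 7.2, 30.0, 6.1 and 8.0. Of these values, 11 of the 12 in EOM and 1 in EDL (18.0) lay below the 25th percentile of their array, to which they were raised before the fit, so values there have no order. The fitted log2 difference of -1.65 (SE 0.22, adjusted p = 1.13e-06, limma) therefore sets EDL against this floor and not against a measured EOM signal, and has no rank among the differences. A second probe set of Rps2-ps1 was too dim to be tested, at 21.2 ± 14.9 units in EDL and 23.6 ± 16.1 in EOM (n = 12 each), and the muscles overlapped in it.

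By subunit, 11 of 29 large subunit members were lower and 1 higher (median -0.24), and 4 of 14 small subunit members were lower (median -0.18). No test of a difference between the subunits was made. No member had all 12 EOM arrays apart from all 12 EDL arrays, which 1.97% of all probe sets had in the lower direction. Of 16 genes with more than 1 tested probe set, 12 had 1 sign on all of them. Rpl11, Rpl26, Rpl6 and Rps3 had both signs, with no opposing calls. Of the 37 tested probe sets with several ribosomal symbols, 5 were lower and 1 higher (median -0.15), which is 13.5% lower and 16.2% called, both below the shares of all probe sets.

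At single ages the calls were fewer, and those of Rps2-ps1 are again against the floor. At 6 months Rpl3l, Rpl4 and Rps2-ps1 were lower (3 of 43, against 6.29% of all probe sets) and none was higher. With the replicate number as a block 11 were lower, against 10.6% of all probe sets. Without replicate 2 of EOM at 6 months 1 was lower, and without replicate 4 there were 5. Without the 2 EDL arrays of highest beta-actin ratio the calls of Rpl4 (adjusted p = 0.104, limma) and Rps2-ps1 (0.287) were lost. At 18 months Rpl24, Rpl3l, Rpl4, Rps2-ps1 and Rps27l were lower (9.25% of all probe sets) and Rpl3 was higher (0.88, adjusted p = 0.000752, limma; 14.1% of all probe sets). Leaving out EDL replicate 2, EOM replicate 2 or EOM replicate 3 left 3 lower. At 30 months the same 5 genes were lower (7.79% of all probe sets), and 3 without EOM replicate 2. All 43 members lay below 0 at 30 months, against 3118 of all 5741 tested probe sets, with medians of -0.25 and -0.066. At 30 months the number of members below 0 was 41 after median centring, 39 after quantile normalisation and 36 after cyclic loess. At 6 months it was 38 as deposited, and 41, 31 and 29 under these scalings in the same order. At 18 months it was 35 as deposited, and 40, 30 and 25. Over single ages, the calls of Rps2-ps1 and Rps27l at 18 and 30 months and of Rpl3 at 18 months held with any 1 array left out. Those of Rpl3l, Rpl4 and Rpl24 were each lost without at least 1 array (highest adjusted p of 0.134, 0.149 and 0.104), and that of Rps2-ps1 at 6 months without EDL replicate 2 (adjusted p = 0.0878, limma). At 30 months the difference of Rps27l was -1.04 (SE 0.17, adjusted p = 0.00011, limma).

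Per array, the members' median signal showed the same direction with overlap. In EDL it was 5554 to 7381 units and in EOM 4684 to 6438. The summed member signal was 3.66% to 4.77% of an array's total in EDL and 3.55% to 4.06% in EOM. EOM replicate 2 at 30 months, at 6438.3 units, stood above 7 of the EDL arrays, and replicate 2 was the highest array in each of the 3 EDL groups.

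**Figure D3:**
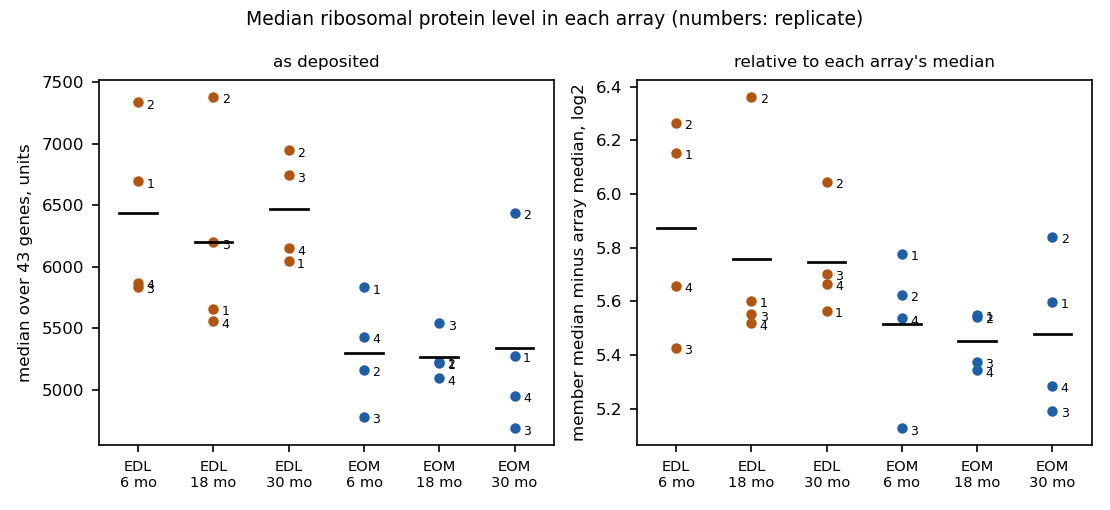
Median signal over the 43 tested ribosomal protein genes on each array (left, units) and its log2 distance from the median of the whole array (right), by group; numbers are the replicates and lines the group means. The EDL arrays lie at 5554 to 7381 units and the EOM arrays at 4684 to 6438, with overlap.

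The size of the difference depended on how arrays were scaled. With the deposited scaling 15 members were lower. Centring arrays on their medians gave 9, quantile normalisation 11, cyclic loess 6, and centring on 2283 other probe sets in the members' range of brightness 22. The shares of all probe sets called lower were 20%, 21.7%, 23%, 20.3% and 24.3% in that order. The members' median was -0.23, -0.28, -0.14, -0.10 and -0.29, and its distance from the median of all probe sets -0.17, -0.17, -0.044, -0.039 and -0.17. Under quantile normalisation and cyclic loess the members' median lay closer to that of all probe sets. At 6 and 18 months the distance was -0.00093 and -0.016 after quantile normalisation, and -0.025 and 0.0083 after cyclic loess. The members' share called lower was below that of all probe sets after median centring and after cyclic loess. It was above it with the deposited scaling, after quantile normalisation and when centred on bright probe sets. Among all probe sets the higher and lower calls were 1278 and 1148 as deposited and 1160 and 1393 when centred on bright probe sets. Rpl19l4, Rpl24, Rpl3l, Rpl4, Rps2-ps1 and Rps27l were lower under all 5 scalings. Rpl3 was higher under 4 and did not pass after median centring (0.29, adjusted p = 0.059, limma). Rps29, the brightest member, was called higher only after quantile normalisation, and its other probe set was called lower as deposited (-0.30, adjusted p = 0.00241, limma).

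**Figure D4:**
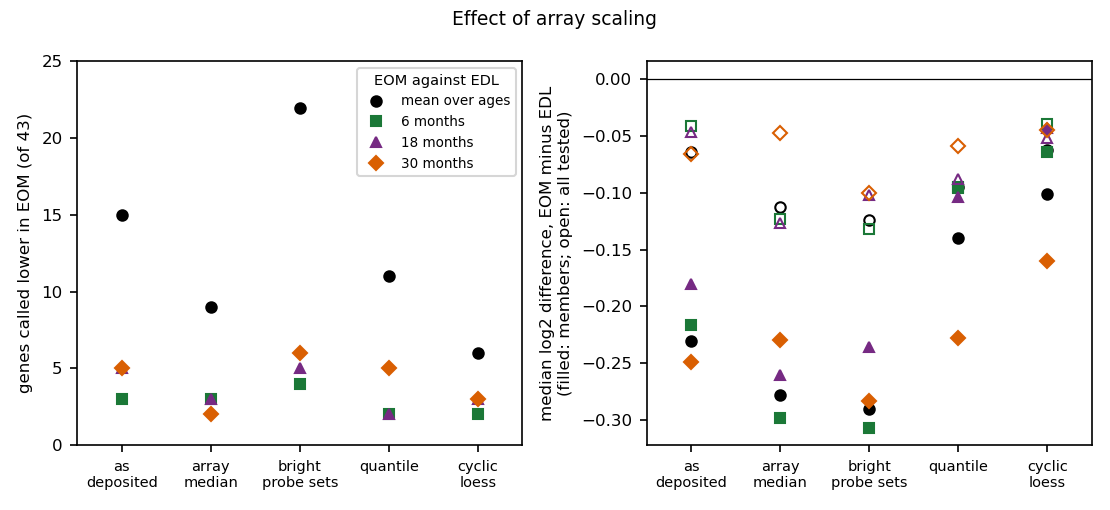
Number of the 43 members called lower in EOM (left) and median log2 difference, EOM minus EDL, of the members (right, filled) and of all tested probe sets (right, open) under 5 scalings of the arrays, for the mean over ages and each age. For the mean over ages the count ran from 6 to 22.

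The age comparisons asked whether each muscle changes between 6, 18 and 30 months. In EDL, Rpl3 was higher at 30 than at 18 months and no other member was called (1 of 43, against 1.52% of all probe sets called higher). Its difference was 0.82 (SE 0.18, adjusted p = 0.0127, limma) and 1.10 in the dimmer probe set (adjusted p = 0.00366), and the 2 groups did not overlap in either (3.27% of all probe sets, higher). In the same comparison 2 of 6 orbital gland markers were higher, whose part in the result was not tested. The call was lost without EDL replicate 1 or replicate 2 at 18 months (adjusted p = 0.0588 and 0.0527, limma) or EDL replicate 1 at 30 months (adjusted p = 0.0592). It was also lost after median centring (0.74, adjusted p = 0.113). From 6 to 30 months in EDL the difference of Rpl3 was 0.52 and did not pass (adjusted p = 0.196), although the groups did not overlap in the brighter probe set (2.84% of all probe sets, higher). In the dimmer probe set they overlapped (0.62, adjusted p = 0.175).

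Rpl3l in EDL differed by -0.11 between 30 and 18 months (adjusted p = 0.962, limma). The within-array ratio of Rpl3 to Rpl3l in EDL was 0.93 higher at 30 than at 18 months (exact permutation p = 0.0286, adjusted p = 0.0571). In EOM, Rpl3 differed by -0.30 between these ages (adjusted p = 1). The difference between the muscles in this change, added after the values were seen, was -1.12 (SE 0.25, adjusted p = 0.0506, limma) and -1.11 in the dimmer probe set (adjusted p = 0.144), so it did not pass. In that contrast 0.331% of all probe sets were called.

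No other age comparison called a member by limma. For EDL at 30 against 6 months 1.86% of all probe sets were called, and 3 members (Rpl3, Rps27l and Rps9; 6.98%) had an unadjusted p under 0.05, against 10.5% of all probe sets. For EDL at 18 against 6 months 0.279% were called, and 1 member (2.33%) had such a p, against 7.66% of all. In EOM 0.174% were called at 18 against 6 months, 0.0348% at 30 against 6 and 0.0174% at 30 against 18. In each of these 1 member (2.33%) had an unadjusted p under 0.05, against 3.97%, 2.3% and 2.37% of all probe sets. At this level the members' shares were below or near the background. Members' medians in these comparisons were between -0.018 and 0.016. The changes in EOM minus those in EDL called no member from 6 to 30 months (0.192% of all probe sets called; 2 members, 4.65%, at an unadjusted p under 0.05 against 4.49% of all) or from 6 to 18 months (0% of all probe sets called; 0 members at an unadjusted p under 0.05 against 4.41% of all). A comparison that misses the threshold does not show that levels were equal.

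**Figure D5:**
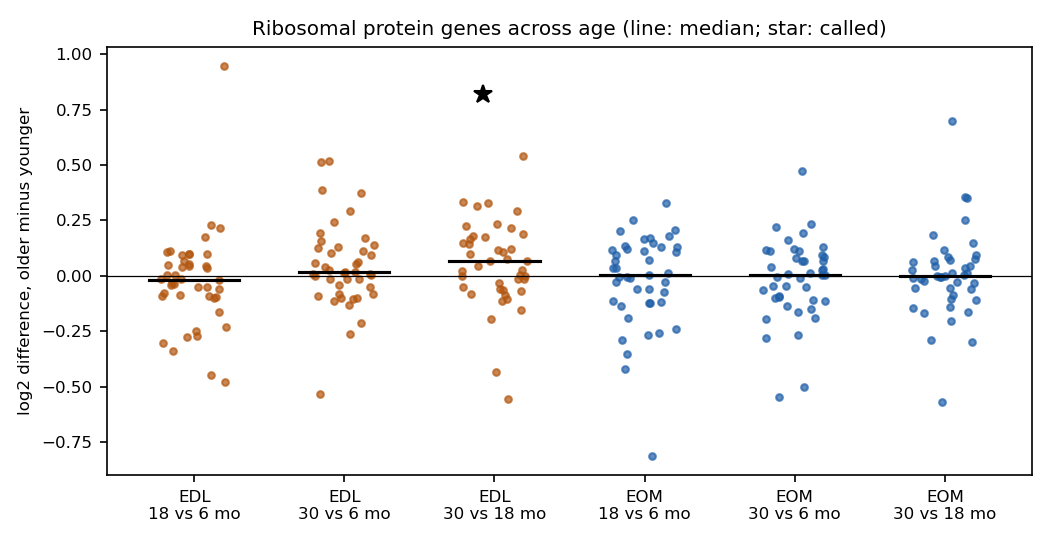
Log2 difference between ages, older minus younger, of the 43 tested ribosomal protein genes in EDL (left 3 columns) and EOM (right 3 columns); each point is a gene, lines are medians and the star is a called gene. The single call is Rpl3 in EDL at 30 against 18 months, at 0.82.

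Some members varied together across arrays and others in opposite directions. Over the 903 pairs of members, the correlation of log2 signals across 24 arrays had a median of 0.25 and was above 0 in 692 pairs. It ran from -0.58 to 0.90, the latter for Rpl11 with Rps29. For deviations from group means the median was 0.11, with 535 pairs above 0. These ran from -0.88 to 0.92, the highest again for Rpl11 with Rps29. No such correlations were computed for other probe sets. Rpl3 and Rpl3l correlated at -0.16 across all arrays and at 0.52 within groups. These values share array, scaling and RNA quality and are a description only.

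Other parts of the translation machinery were read beside the members, from lists made with earlier results known; the background for their counts is the 20% lower and 22.3% higher of all probe sets. Eif4ebp1 and 4 elongation factors stand in more than 1 list. Of 5 genes with symbols starting in Eef, which include the kinase Eef2k, 4 were lower in EOM and 1 higher. Eef1a2, the muscle form that carries aminoacyl-tRNA to the ribosome, was lower (-1.13, adjusted p = 1.81e-07, limma), and Eef1a1, the form of most other tissues, was higher (0.55, adjusted p = 0.0122). Eef2k, the kinase that inhibits the translocation factor Eef2, was lower (-1.69), and Eef2 itself by less (-0.37). Of 20 genes with symbols starting in Eif, which include Eif4ebp1 and the kinases Eif2ak2 and Eif2ak3, 11 were lower and 2 higher. Eif4a2, a helicase, was at -0.75, Eif4h, its cofactor, at 0.74 and Eif2ak3, a stress kinase that passed the filter through EOM alone, at 1.08.

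Of 9 ribosome biogenesis genes 5 were lower and none higher, among them Gnl3 (-0.65) and Polr1d (-0.62). Polr1a, the large subunit of RNA polymerase I, is also among the 5 (-1.29, adjusted p = 0.000655, limma). It passed the filter through 1 EDL group alone, and 9 of its 12 EOM values and 3 of its EDL values were raised to the floor, so its size is not a measured difference. Of 9 genes of S6 kinase and mTOR signalling, which controls translation of pyrimidine-tract messages, 4 were lower: Akt2 (-0.91), Rps6kb1, the S6 kinase (-0.75), Tsc2 (-0.61) and Eif4ebp1 (-0.58). Of 8 further transcripts listed for pyrimidine tracts 4 were lower and 2 higher, and 4 of the 8 are elongation factors already counted above. The other gene called higher beside Eef1a1 was Vim, an intermediate filament protein (1.05). Of 14 mitochondrial ribosomal proteins, which serve a separate ribosome, 3 were higher, led by Mrps6 (1.25), and 3 lower, led by Mrpl40 (-0.44). The medians of these 6 lists were -0.55, -0.40, -0.45, -0.48, -0.21 and -0.15 in the order given, against -0.065 for all tested probe sets.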

How the data were processed

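The sources were 24 arrays of Affymetrix Rat Genome U34 type, in 6 groups of 4. The deposited values are intensities that the authors computed with Affymetrix Microarray Suite (MAS5 per the submitters' processing notes), 1 linear value per probe set and array, already scaled. Arrays were treated as 1-colour, since the table holds a single value per probe set and the design text describes a biotin label, although Cy3 and Cy5 stand in the labels. Of 8799 probe sets 59 controls were removed. Values below an array's 25th percentile (21.4 to 34.5 units) were raised to it, log2 was taken, and a probe set was tested where at least 3 of 4 arrays of 1 group exceeded the 40th percentile of the array (53.8 to 83.8 units), which held for 5741.

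In R 4.3.3, limma 3.58.1 fitted 1 mean per group to the 24 arrays together (lmFit, eBayes with an intensity trend, 18 residual degrees of freedom), with two-sided p-values adjusted by Benjamini-Hochberg over all tested probe sets. The same steps were also run on simulated data with independent noise between arrays and changes larger than most of the members' differences. That run does not bear on small differences or on arrays that deviate together. Per the series' design text the replicates of a group were independent pools of animals, and the spread behind each p-value is that between pools. The ratio of Rpl3 to Rpl3l was tested by exact permutation in Python 3.11.15. The number of arrays limits the precision, and detection calls were not used here.

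The members and gene lists were chosen with earlier results of these data known. Named members were, in each comparison, the called ones with the 6 largest rises and 6 largest falls, the 3 brightest and 3 dimmest, those left out by the filter, paralogs, copies, stalk proteins and Rpsa, and of other lists the 3 called genes of largest size; further called members are named with their values only. Rpl11, Rpl26, Rpl6, Rps3, Rps9, Rps23 and Eef2 were chosen after their values were seen.

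Groups share replicate numbers in the labels, and no label says what a number marks. For EOM and EDL at 6 months each of the 4 same-numbered pairs of arrays deviated together from their group means (correlations of 0.13 to 0.34), so the block is given beside that result. At 18 and 30 months the 4 correlations were also above 0 (0.062 to 0.32 and 0.079 to 0.39), with 3 of 4 over 0.1. Same-numbered arrays of 1 muscle at different ages deviated together as well, at 0.14 to 0.53 for EOM at 30 and 6 months. The main fits did not use the replicate number, and the block counts for 18 and 30 months are given in the last section.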

Additional observations from a re-analysis of the deposited data

Results flagged for a closer look

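For the 16 members called in any comparison and for the members' median per array, each group of 4 arrays was searched for an array whose distance from its nearest neighbour filled most of the group's range. Of 102 groups searched, 5 held such an array, where chance gives about 1 in 20. In EOM at 6 months Rpl19l4 read 466.8 units on replicate 3, against 622.5 to 650.1 on the others, and Rpl21 read 6569.8 on replicate 2, against 4779.4 to 5085.4. In EOM at 30 months Rpl21 read 6438.3 on replicate 2, against 4685.1 to 4978.9, and Rps2-ps1 read 30.0 on the same array, against 6.1 to 8.0. In EDL at 30 months Rpl24 read 18107.9 on replicate 2, against 13233.0 to 13542.2. Without that array the 30-month difference of Rpl24 was -0.37 and did not pass (adjusted p = 0.104, limma). In 4 of these 5 cases the array was a replicate 2 with the high value.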

How the results depend on the processing

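Results were recomputed under 37 settings, of which 24 left out 1 array each. Of 31 results for single members, 10 were called under all settings that gave a value and none changed sign. These were Rpl3l, Rpl4, Rpl24, Rps2-ps1 and Rps27l over ages, Rps2-ps1 and Rps27l at 18 and at 30 months, and Rpl3 at 18 months. Those of Rps2-ps1 set EDL against the floor for low signals. Over ages, the count of members called lower was 15, and 9 with arrays centred on their medians, 6 after cyclic loess and 23 with the replicate block. The count called higher was 1, and 0 after median centring and 2 after quantile normalisation. At 6 months the count lower was 3, and 1 when only the groups compared were fitted; with the mean of all probe sets of a gene 1 member was higher. The members' median at 6 months was -0.22, and -0.064 after cyclic loess. At 18 months the count lower was 5, and 3 after median centring, 2 after quantile normalisation, 3 after cyclic loess and 3 without the filter. At 30 months it was 5, and 2 after median centring and 3 after cyclic loess. The single rise in EDL at 30 against 18 months became 0 after median centring. The cause of these changes was not tested.

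With 1 array left out, the counts lower were 12 to 18 over ages, 1 to 5 at 6 months, 3 to 5 at 18 and 3 to 6 at 30 months, and the count higher in EDL at 30 against 18 months was 0 to 1. With the replicate number as a block, 11 members were lower at 6 months, 9 at 18 and 12 at 30 months, where 10.6%, 14.3% and 12.6% of all probe sets were lower; over ages the background was 25.4%. No other count changed under the block.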
